A study of Homo sapiens with 12 samples.

Results

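The DNA replication genes described here are 41 transcripts taken by gene name from a table of 20979 entries. No threshold on a measured value was applied, but the list was drawn up with earlier results of these data known. They encode the factors that license and open replication origins, copy the 2 strands and protect the fork. All 41 stand once in the table and lay above 1 FPKM (fragments per kilobase of transcript scaled to library size) in all 12 libraries, with values from 1.96 to 239.69. None was therefore removed by the filter on low values, which kept 12276 genes. The libraries hold polyA RNA of 3 established human epithelial kidney lines, A704 and CAKI-1 (labelled as cancer) and HK2 (labelled as normal, an immortalised line). Each line gave 4 libraries, transfected with a non-targeting siRNA (control), with LATS siRNA or with 1 of 2 independent siRNAs to PTPN14, here PTPN14-1 and PTPN14-2, so every library, controls included, had received an siRNA with a lipid reagent. The dose was 25 nM and RNA was taken after 48 h. The sample titles and the descriptions number the PTPN14 siRNAs in opposite ways, and the numbers of the titles are followed. A line's 4 libraries received different siRNAs, and no label states that they came from cultures started separately. With 1 library per line and siRNA, each p-value rests on the spread left in all 12 libraries once line and siRNA are fitted. That spread holds how unevenly the siRNA differences ran over the lines, including siRNAs outside the comparison at hand. It is also drawn towards the spread of other genes. Part of it may be technical, and it does not cover the spread between repeat cultures of 1 line and siRNA. Each line is named with its own growth medium in the labels, so line and medium cannot be told apart.

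Replication starts when the origin recognition complex, CDC6 and CDT1 load the ring-shaped MCM2-7 helicase onto DNA in G1, and geminin (GMNN) blocks a repeat of that loading later in the cycle. At the G1/S transition CDC45 and the GINS complex turn MCM2-7 into the active helicase, polymerase alpha with primase starts each strand, and polymerases epsilon and delta extend them on the PCNA clamp. Many of these genes are transcribed in a burst before S phase under E2F transcription factors, and their summed transcript level in a culture is widely read as a sign of proliferation. LATS kinases and the phosphatase PTPN14 restrain the Hippo pathway's coactivator YAP1, which in many cell types drives growth genes. In such bulk samples, fewer cells in S phase and less RNA per cell in S phase cannot be told apart.

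The E2F letters are common around the starts of these genes, and stretches before 6 starts that carry or lack them are shown. Of these 6 genes, MCM6, GINS2 and RFC1 passed the test in an siRNA comparison below, whereas PCNA, CDT1 and GMNN passed in none. The sequences come from RefSeq (GRCh38.p14), run 5′ to 3′ along the gene's own strand, and have the E2F letters in capitals. The stretches lie before the RefSeq transcription start at chr2:135876444-135876563 (MCM6, minus strand), chr16:85688967-85688996 (GINS2, minus strand), chr20:5126623-5126742 (PCNA, minus strand), chr16:88803743-88803772 (CDT1, plus strand), chr6:24775293-24775412 (GMNN, second listed start, plus strand) and chr4:39366363-39366482 (RFC1, minus strand). Those of MCM6, PCNA, GMNN and RFC1 are the 120 bases up to the start, and those of GINS2 and CDT1 are 30 bases around the letters. The GINS2 and CDT1 stretches lie before the RefSeq start but wholly in an annotated exon of the same gene in GENCODE v29, whose gene start is 1077 bases farther upstream for GINS2 and 530 for CDT1. That of GMNN begins 362 bases past its GENCODE gene start and outside any exon, and 4 bases of the PCNA and 13 of the RFC1 stretch are exonic.
MCM6: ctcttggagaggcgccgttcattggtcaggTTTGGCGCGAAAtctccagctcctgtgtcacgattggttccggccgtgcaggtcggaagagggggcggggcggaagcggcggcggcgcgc
GINS2: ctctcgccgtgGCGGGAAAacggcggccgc
PCNA: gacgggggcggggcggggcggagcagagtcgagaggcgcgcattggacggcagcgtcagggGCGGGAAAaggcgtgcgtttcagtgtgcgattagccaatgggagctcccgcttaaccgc
CDT1: ccagggcgcccGCGGGAAAtttggcgggaa
GMNN: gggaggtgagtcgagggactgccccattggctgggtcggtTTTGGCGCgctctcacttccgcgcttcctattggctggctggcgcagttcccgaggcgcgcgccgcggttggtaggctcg
RFC1: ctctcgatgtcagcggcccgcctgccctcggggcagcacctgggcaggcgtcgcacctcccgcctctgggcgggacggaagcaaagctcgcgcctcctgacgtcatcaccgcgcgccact
The letters searched were TTTCCCGC, TTTCGCGC, TTTGCCGC and TTTGGCGC, on both strands, in the 300 bases from 250 before to 50 after a start. In MCM6 the capitals are a pair of overlapping matches on opposite strands, and the same pair stands a second time farther upstream, at -152 and -148 from the start. GINS2 has 1 match, at -31. The window of RFC1 has none, nor do those of CHTF18 and of the 3 starts listed for CDC45. Of the 41 genes 34 had a RefSeq window, and 19 of these (55.9%) held at least 1 match, against 6.78% of the 9504 tested genes with a window and 3.99% of all 27305 genes with one. The letters TTTGAA or TTCGAA, the CHR element of mitotic genes, stood in 2.94% of the 34 windows, against 15.5% of those of tested genes and 66.7% of 12 mitosis genes. A match is a description of the letters and does not show that a factor binds there.

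The siRNA targets were measured first. PTPN14 stood at 21.4, 28.7 and 25.2% of the same line's control with PTPN14-1 (A704, HK2 and CAKI-1) and at 37.3, 37.5 and 31.2% with PTPN14-2. LATS1 stood at 30.7, 27.9 and 22.5% of control with the LATS siRNA, and LATS2 at 110.2, 98.2 and 122.3%, so only the LATS1 transcript fell by the limma test used below (adjusted p = 0.00018, against 0.62 for LATS2). Effective depth, estimated from the lowest values of single-exon genes, was between 16.9 M reads, in the HK2 library with PTPN14-1, and 23.0 M reads, in the LATS library of CAKI-1. Of 7 kidney and epithelial markers, the keratins KRT8 and KRT18 and the kidney factor PAX8 were present in every library, and the other 4 differed between lines. PAX2, CDH1 (E-cadherin) and CDH16 (kidney cadherin) averaged 11.2, 18.5 and 67.2 FPKM in A704, whereas PAX2 was listed at 0 in all HK2 libraries and at most 0.01 in CAKI-1, CDH1 stayed at most 0.07 in HK2 and 0.17 in CAKI-1, and CDH16 averaged 0.97 in HK2 and 4.55 in CAKI-1. EPCAM averaged 28.6 FPKM in HK2 and was at most 0.25 in A704 and 0.51 in CAKI-1. The 3 leukocyte markers summed to at most 0.1 FPKM and the 3 endothelial markers to at most 0.35 in any library, and of 3 fibroblast markers DCN reached 5.67 to 8.2 FPKM in HK2.

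The lines differed far more than the siRNAs did. HK2 had the highest mean of the 3 lines for 35 of the 41 genes, A704 for 6 (POLA2, POLD2, POLD3, RFC2, CHTF18 and RPA3) and CAKI-1 for none. CAKI-1 had the lowest mean for 34, A704 for 5 (ORC6, GINS4, DSCC1, RPA2 and TIPIN) and HK2 for 2 (POLA2 and RPA3). For 28 genes all 4 HK2 libraries lay above the other 8, which held for 24.1% of all genes tested, and for 24 genes all 4 CAKI-1 libraries lay below the other 8, against 15.9% of all genes. Genes were tested with limma on log2(FPKM + 1), a scale that understates the change of low genes, with Benjamini-Hochberg adjustment over all genes at 0.05. By that test HK2 exceeded CAKI-1 for 37 of the 41 genes (41.3% of all genes called higher) and was lower for 0 (40.4% of all genes called lower). At an unadjusted p under 0.05 the count of lower genes was also 0 (40.8% of all genes). The median difference was 1.34 on the log2 scale, against 0.011 over all genes. With libraries scaled to an equal sum the median of all genes moved by 0.119 in this comparison, and that of the 41 genes became 1.49. A704 exceeded CAKI-1 for 31 genes (39.3% of all genes) and was lower for 3, ORC6, RPA2 and TIPIN (41.8% of all genes), with a median of 0.59. A704 was lower than HK2 for 32 genes (44.0% of all genes) and higher for 6 (40.6% of all genes), with a median of -0.71. Neighbouring lines that were not told apart were A704 and CAKI-1 for CLSPN, GINS4, DSCC1, MCM10, RFC3, POLE2 and CDC6, A704 and HK2 for GMNN, FEN1 and RFC5, and HK2 and CAKI-1 for RPA3, POLA2, POLD3 and TIPIN. Mitosis genes moved the same way between HK2 and CAKI-1, with 10 of 14 higher and 2 lower in HK2 (median 0.91), and their part in these differences was not tested.

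**Figure D1:**
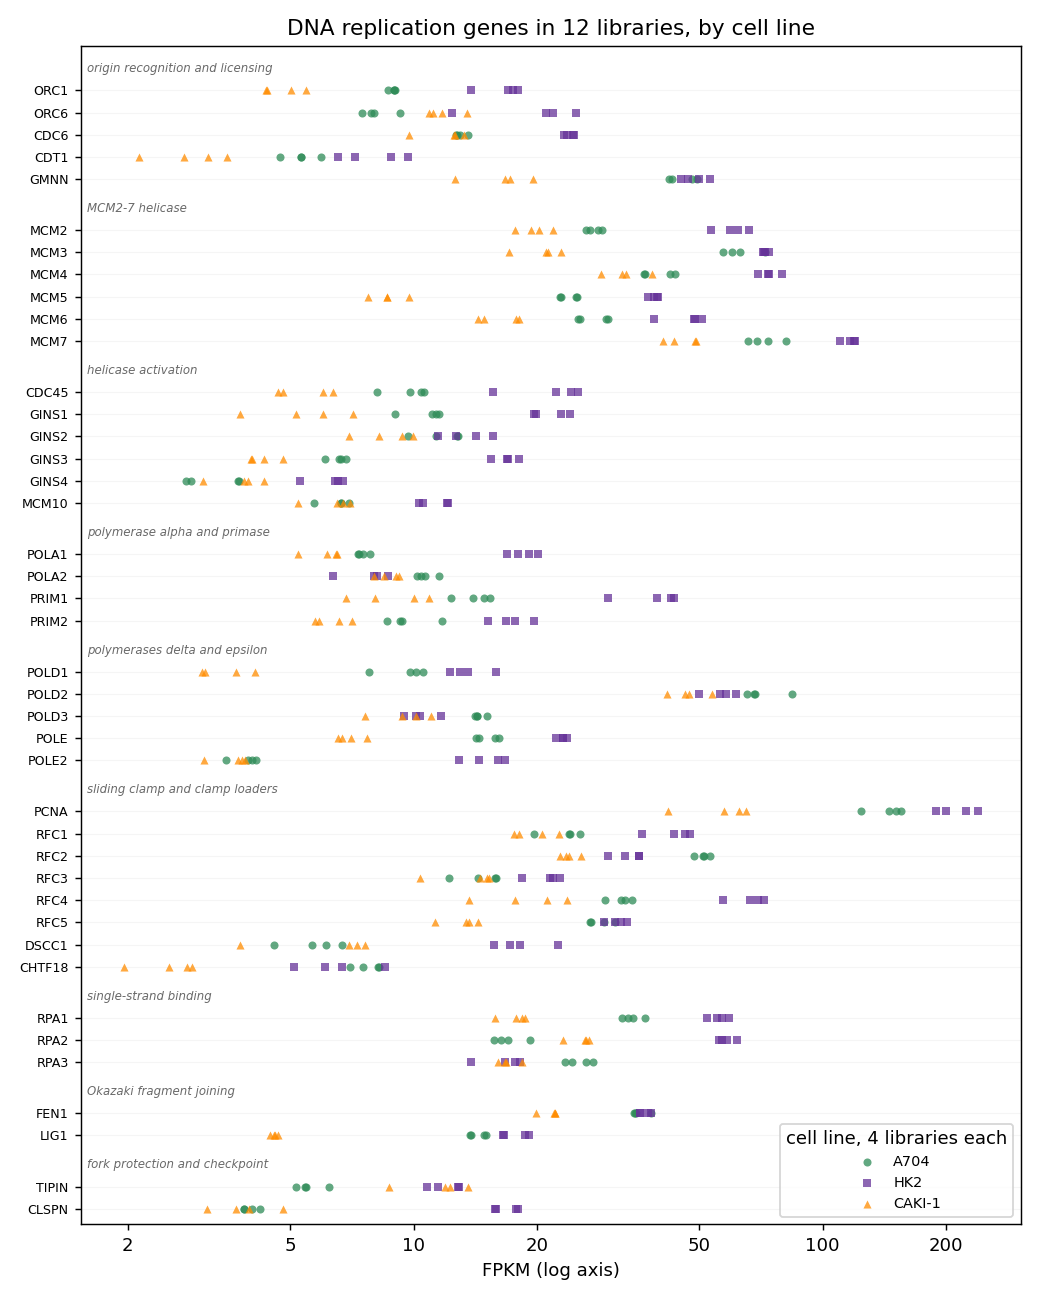
FPKM (log axis) of each of the 41 genes in all 12 libraries, grouped by role, with 1 symbol per library and a colour and shape per cell line. HK2 squares lie to the right for most genes and CAKI-1 triangles to the left. Among the genes that depart from that order are POLA2 and RPA3, with the lowest mean in HK2, and TIPIN and RPA2, with the lowest mean in A704. For POLA2 and RPA3 the HK2 and CAKI-1 symbols overlap.

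In what follows, library values are FPKM in the order control, LATS, PTPN14-1 and PTPN14-2 siRNA, and means of a line carry the SD over its 4 libraries (n = 4), which holds the effect of the siRNAs too. Among the origin licensing genes, GMNN, the inhibitor of CDT1, had the highest level in every line and CDT1 the lowest. GMNN stood at 48.0, 42.1, 42.7 and 49.2 (A704), 45.0, 47.0, 49.8 and 53.1 (HK2) and 16.7, 12.6, 17.2 and 19.6 (CAKI-1). The 4 CAKI-1 libraries all lay below those of A704 and HK2, which overlapped. CDT1, the loading factor that geminin blocks, stood at 5.94, 5.32, 5.31 and 4.72 (A704), 9.67, 7.21, 6.55 and 8.82 (HK2) and 3.50, 3.14, 2.74 and 2.13 (CAKI-1). Its lines did not overlap, with HK2 above A704 and A704 above CAKI-1. CDC6, the ATPase that works with CDT1, stood at 12.7, 12.8, 13.6 and 13.0 (A704), 23.3, 23.7, 24.6 and 24.6 (HK2) and 13.3, 9.74, 12.6 and 12.6 (CAKI-1). HK2 was about 2.00-fold above CAKI-1 in the mean, and the A704 and CAKI-1 values overlapped. ORC6, the smallest subunit of the origin recognition complex, stood at 9.27, 7.49, 7.85 and 8.01 (A704), 24.9, 21.1, 12.4 and 21.9 (HK2) and 13.5, 11.1, 10.9 and 11.8 (CAKI-1). A704 was lowest here, and the HK2 library with PTPN14-1 lay within the CAKI-1 range while the other HK2 libraries lay well above it. ORC1, the subunit whose level varies most with the cell cycle, averaged 8.89 ± 0.17 (A704), 16.6 ± 1.9 (HK2) and 4.81 ± 0.53 (CAKI-1). The ratio of ORC6 to ORC1 was 2.47 ± 0.22 in CAKI-1, 1.19 ± 0.21 in HK2 and 0.92 ± 0.081 in A704 (SD, n = 4), so the 2 subunits did not keep 1 proportion across lines.

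All 6 subunits of the MCM2-7 ring were higher in HK2 than in A704 and higher in A704 than in CAKI-1. MCM7 had the highest level of the 6 and MCM5 the lowest in every line, although the assembled ring holds 1 of each. MCM2 stood at 28.3, 28.8, 27.0 and 26.4 (A704), 66.3, 62.3, 53.3 and 59.3 (HK2) and 21.9, 20.3, 19.4 and 17.8 (CAKI-1). MCM3 stood at 72.5, 57.1, 60.1 and 63.0 (A704), 72.3, 73.9, 71.9 and 71.4 (HK2) and 22.9, 17.1, 21.1 and 21.3 (CAKI-1). A704 and HK2 were close for MCM3 but far apart for MCM2. MCM4 stood at 42.3, 36.9, 36.7 and 43.7 (A704), 79.6, 73.9, 69.4 and 73.6 (HK2) and 38.3, 28.8, 32.3 and 33.1 (CAKI-1). MCM5 stood at 22.8, 25.0, 25.1 and 22.9 (A704), 38.7, 39.5, 37.5 and 39.5 (HK2) and 9.76, 8.62, 8.59 and 7.76 (CAKI-1). HK2 was 4.47-fold above CAKI-1 for MCM5 in the mean, the widest spread of lines among the 41 genes (log2 difference 2.04, SE 0.071, adjusted p = 1.6e-11). MCM6 stood at 29.5, 25.3, 25.5 and 29.97 (A704), 48.7, 48.5, 38.7 and 50.6 (HK2) and 18.1, 14.4, 14.8 and 17.8 (CAKI-1). MCM7 stood at 73.5, 65.6, 81.5 and 69.3 (A704), 119, 117, 110.0 and 120.3 (HK2) and 49.0, 40.6, 48.7 and 43.2 (CAKI-1). The 3 lines did not overlap for MCM2, MCM5, MCM6 and MCM7, whereas for MCM3 the A704 control library lay within the HK2 range and for MCM4 the CAKI-1 control library within the A704 range.

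The helicase activators had lower means than any MCM2-7 gene in each line, and GINS4 had the lowest of them. In CAKI-1 the means of GINS2 (8.63) and MCM5 (8.68) were close, and the libraries of the 2 genes overlapped. CDC45, which joins MCM2-7 and GINS in the moving helicase, stood at 10.6, 10.4, 8.16 and 9.78 (A704), 22.3, 24.3, 15.7 and 25.2 (HK2) and 6.35, 4.65, 4.79 and 6.01 (CAKI-1). HK2 was 4.01-fold above CAKI-1 in the mean, and its lowest library was that with PTPN14-1. GINS2, a subunit of the 4-part GINS complex, stood at 12.8, 11.3, 9.68 and 12.8 (A704), 15.6, 12.7, 11.5 and 14.2 (HK2) and 9.98, 8.23, 6.95 and 9.37 (CAKI-1). The lines overlapped for GINS2, and the mean of HK2 was 1.56-fold above that of CAKI-1. GINS1 averaged 10.8 ± 1.2 (A704), 21.7 ± 2.2 (HK2) and 5.51 ± 1.4 (CAKI-1), and GINS3 averaged 6.53 ± 0.33 (A704), 16.9 ± 1.1 (HK2) and 4.28 ± 0.37 (CAKI-1). GINS4 averaged 3.27 ± 0.53 (A704), 6.25 ± 0.65 (HK2) and 3.79 ± 0.52 (CAKI-1). So GINS1 exceeded GINS2 in HK2, with a ratio of 1.63 ± 0.30, and lay below it in CAKI-1, at 0.66 ± 0.26, although the complex holds 1 of each. MCM10, which stabilises the activated helicase, averaged 6.49 ± 0.54 (A704), 11.3 ± 0.95 (HK2) and 6.37 ± 0.79 (CAKI-1).

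Primase and polymerase alpha form 1 complex, yet their subunits ranked differently in the lines. PRIM1, the catalytic primase subunit, stood at 14.8, 13.9, 12.4 and 15.4 (A704), 39.3, 42.6, 29.9 and 43.4 (HK2) and 10.9, 6.84, 8.04 and 10.1 (CAKI-1). PRIM2, the large primase subunit, stood at 8.59, 9.29, 11.7 and 9.37 (A704), 15.2, 17.7, 19.7 and 16.9 (HK2) and 6.57, 5.75, 7.06 and 5.87 (CAKI-1). For both genes the HK2 libraries lay above those of the other lines without overlap. POLA1, the catalytic polymerase subunit, followed them, with means of 7.50 ± 0.23 (A704), 18.6 ± 1.4 (HK2) and 6.08 ± 0.59 (CAKI-1). POLA2, the accessory subunit, did not, with means of 10.7 ± 0.58 (A704), 7.79 ± 1 (HK2) and 8.70 ± 0.56 (CAKI-1). HK2 had the lowest mean for POLA2. By the test it was lower than A704 (log2 difference 0.42, SE 0.087, adjusted p = 0.00052 for A704 over HK2) but not told apart from CAKI-1. The ratio of PRIM1 to POLA2 was thus 4.97 ± 0.26 in HK2, 1.33 ± 0.18 in A704 and 1.02 ± 0.15 in CAKI-1 (SD, n = 4).

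Of the leading and lagging strand polymerases, POLD2, the accessory subunit of polymerase delta, had the highest level in every line. POLD2 stood at 68.5, 67.9, 65.4 and 84.1 (A704), 56.3, 58.1, 49.97 and 61.5 (HK2) and 47.3, 53.6, 41.6 and 46.2 (CAKI-1). A704 was highest, and its PTPN14-2 library stood above its other 3. POLD1, the catalytic subunit of polymerase delta, averaged 9.57 ± 1.2 (A704), 13.7 ± 1.6 (HK2) and 3.48 ± 0.5 (CAKI-1). POLD3, another accessory subunit, averaged 14.5 ± 0.47 (A704), 10.4 ± 0.93 (HK2) and 9.53 ± 1.4 (CAKI-1). POLE, the catalytic subunit of polymerase epsilon, averaged 15.2 ± 0.95 (A704), 23.1 ± 0.6 (HK2) and 6.99 ± 0.51 (CAKI-1), and POLE2, its second subunit, 3.89 ± 0.29 (A704), 15.0 ± 1.7 (HK2) and 3.62 ± 0.37 (CAKI-1). The A704 libraries overlapped CAKI-1 for POLE2 but not for POLE, and the ratio of POLE to POLE2 was 3.91 ± 0.24 (A704), 1.96 ± 0.37 (CAKI-1) and 1.55 ± 0.14 (HK2).

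PCNA, the sliding clamp, had the highest level of all 41 genes in every line. PCNA stood at 151, 125, 146 and 155 (A704), 200.3, 224, 189.7 and 239.7 (HK2) and 62.4, 41.8, 57.3 and 64.9 (CAKI-1). The CAKI-1 libraries lay far below the rest, and the LATS library was the lowest in CAKI-1 and in A704. RFC1, the large subunit of the main clamp loader, stood at 24.2, 25.5, 19.6 and 23.9 (A704), 43.3, 46.1, 36.2 and 47.3 (HK2) and 20.6, 18.1, 17.6 and 22.6 (CAKI-1). The PTPN14-1 library was the lowest of its line in all 3 lines. RFC3, a small subunit shared by the loaders, stood at 15.9, 12.2, 14.4 and 15.8 (A704), 21.6, 18.4, 21.9 and 22.8 (HK2) and 15.2, 10.4, 15.3 and 14.6 (CAKI-1). Here the LATS library was the lowest of its line in all 3. Of the other shared subunits, RFC2 averaged 51.0 ± 1.8 (A704), 33.5 ± 2.7 (HK2) and 24.0 ± 1.2 (CAKI-1), RFC4 32.1 ± 2 (A704), 66.2 ± 6.4 (HK2) and 19.1 ± 4.4 (CAKI-1) and RFC5 28.6 ± 1.9 (A704), 31.4 ± 1.7 (HK2) and 13.2 ± 1.3 (CAKI-1). CHTF18, the large subunit of an alternative loader, stood at 8.21, 8.22, 7.51 and 6.99 (A704), 8.54, 6.67, 5.11 and 6.09 (HK2) and 2.80, 2.88, 1.96 and 2.53 (CAKI-1). It was the lowest of the 41 genes in CAKI-1, and A704 and HK2 overlapped. DSCC1, its partner in that loader, averaged 5.75 ± 0.89 (A704), 18.4 ± 3 (HK2) and 6.40 ± 1.8 (CAKI-1), so CHTF18 and DSCC1 ranked the lines in different orders.

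The 3 subunits of RPA, which coats single-stranded DNA, had 3 different line orders. RPA1, the large subunit, stood at 32.3, 33.4, 34.4 and 36.8 (A704), 52.1, 55.4, 56.9 and 59.2 (HK2) and 15.8, 18.4, 17.8 and 18.7 (CAKI-1). RPA2, the middle subunit, stood at 17.0, 15.7, 19.2 and 16.3 (A704), 55.9, 56.6, 58.5 and 61.6 (HK2) and 26.4, 23.1, 26.8 and 26.2 (CAKI-1). RPA3, the small subunit, averaged 25.5 ± 1.8 (A704), 16.6 ± 2 (HK2) and 17.0 ± 1 (CAKI-1). RPA2 exceeded RPA3 by 3.54 ± 0.53 times in HK2 and 1.51 ± 0.083 times in CAKI-1, whereas in A704 the ratio was 0.67 ± 0.099 (SD, n = 4). FEN1, which trims Okazaki fragments, stood at 35.0, 34.7, 38.0 and 34.8 (A704), 38.0, 37.4, 35.8 and 35.9 (HK2) and 22.1, 19.9, 22.2 and 22.2 (CAKI-1). LIG1, which seals them, stood at 15.1, 13.8, 14.8 and 13.8 (A704), 18.8, 16.6, 16.6 and 19.2 (HK2) and 4.58, 4.67, 4.57 and 4.46 (CAKI-1). For both, CAKI-1 lay below the other lines without overlap. CLSPN (claspin), the adaptor that passes the checkpoint signal to CHK1, stood at 4.03, 3.86, 4.22 and 3.84 (A704), 18.0, 15.9, 15.9 and 17.8 (HK2) and 4.80, 3.13, 3.95 and 3.68 (CAKI-1). HK2 was 4.34-fold above CAKI-1 in the mean. TIPIN, which travels with the fork and binds RPA, stood at 6.20, 5.15, 5.47 and 5.42 (A704), 12.9, 10.8, 11.4 and 12.9 (HK2) and 11.97, 8.71, 13.6 and 12.3 (CAKI-1). A704 was lowest for TIPIN, and HK2 and CAKI-1 overlapped.

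With PTPN14-1, 2 of the 41 genes fell against control and 0 rose, where 3.47% of all genes were called lower and 2.39% higher, so both counts lay near the background. They were GINS2 and CHTF18. GINS2 (chromosome 16, 85676198 to 85690073, minus strand, GRCh38, GENCODE v29) stood at 75.8% (A704), 73.7% (HK2) and 69.6% (CAKI-1) of control (log2 difference -0.41, SE 0.069, adjusted p = 0.0056). It was the lowest of the 4 libraries in every line. CHTF18 (chromosome 16, 788046 to 800737, plus strand) stood at 91.5, 59.8 and 70.0% of control (log2 difference -0.37, SE 0.099, adjusted p = 0.045). PTPN14-2 also gave lower values for CHTF18 in all 3 lines, at 85.1, 71.3 and 90.4% of control, without passing the test (adjusted p = 0.26). Exons of GINS2 overlap GSE1 and those of CHTF18 overlap GNG13 and RPUSD1 on the other strand, and the strand setting of the counting is not given in the sources used here. Below the unadjusted threshold of 0.05 there were 12 genes with a lower estimate (11.8% of all genes) and 1 with a higher one, PRIM2 (11.1% of all genes). ORC6 had the largest estimate but missed the threshold (log2 difference -0.48, SE 0.13, adjusted p = 0.053), with HK2 at 49.9% of control and the other 2 lines at 84.7% (A704) and 80.9% (CAKI-1). CDC45 also missed it (log2 difference -0.39, SE 0.11, adjusted p = 0.055), at 77.0, 70.3 and 75.4% of control in the same order of lines. PRIM2 had a higher estimate (log2 difference 0.28, SE 0.084, adjusted p = 0.065), at 136.4, 129.7 and 107.5% of control.

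Across all 41 genes, 33 estimates with PTPN14-1 lay below control, with a median of -0.12 on the log2 scale, against 49.5% of all genes below and a median of 0.0021. In all 3 lines 23 genes lay below control (21.0% of all genes) and 4 above it, RPA2, PRIM2, RPA1 and GINS1 (20.6% of all genes). By role, the helicase activation genes had medians of -0.27 (A704), -0.23 (HK2) and -0.19 (CAKI-1), the lowest of any role in A704 and CAKI-1. In HK2 the medians of origin licensing, -0.36, and of polymerase alpha and primase, -0.27, were lower. GINS1 went against the helicase activation genes, with 102.6, 115.9 and 138.2% of control. The MCM2-7 medians were -0.13, -0.15 and -0.17, and those of single-strand binding lay above 0, at 0.089, 0.063 and 0.021. The latter are medians of 3 genes that did not move together. RPA1 and RPA2 lay above control in all 3 lines and RPA3 below it (log2 difference -0.22, SE 0.084, adjusted p = 0.14 for RPA3). In HK2 the PTPN14-1 library was the lowest of the 4 for 29 of the 41 genes, against 31.8% of all genes, and it is also the library with the lowest estimated depth, whose part was not tested. In A704 it was the lowest for 12 genes and in CAKI-1 for 7, where the shares over all genes were 29.9 and 24.3%.
The counts of called genes moved with single libraries. The 2 calls became 1 without any of the A704 control, the HK2 control, the HK2 PTPN14-1 library or any PTPN14-2 library, and 5 without the CAKI-1 LATS library. Without the CAKI-1 control 1 gene was called lower, GINS2, and 1 higher, PRIM2 (log2 difference 0.38, SE 0.087, adjusted p = 0.043). The GINS2 call held without each library in turn (adjusted p at most 0.042), whereas that of CHTF18 was lost without any 1 library other than the A704 PTPN14-1 or the CAKI-1 LATS library, including the omission of the HK2 control (adjusted p = 0.23) or the HK2 PTPN14-1 library (adjusted p = 0.19).

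**Figure D2:**
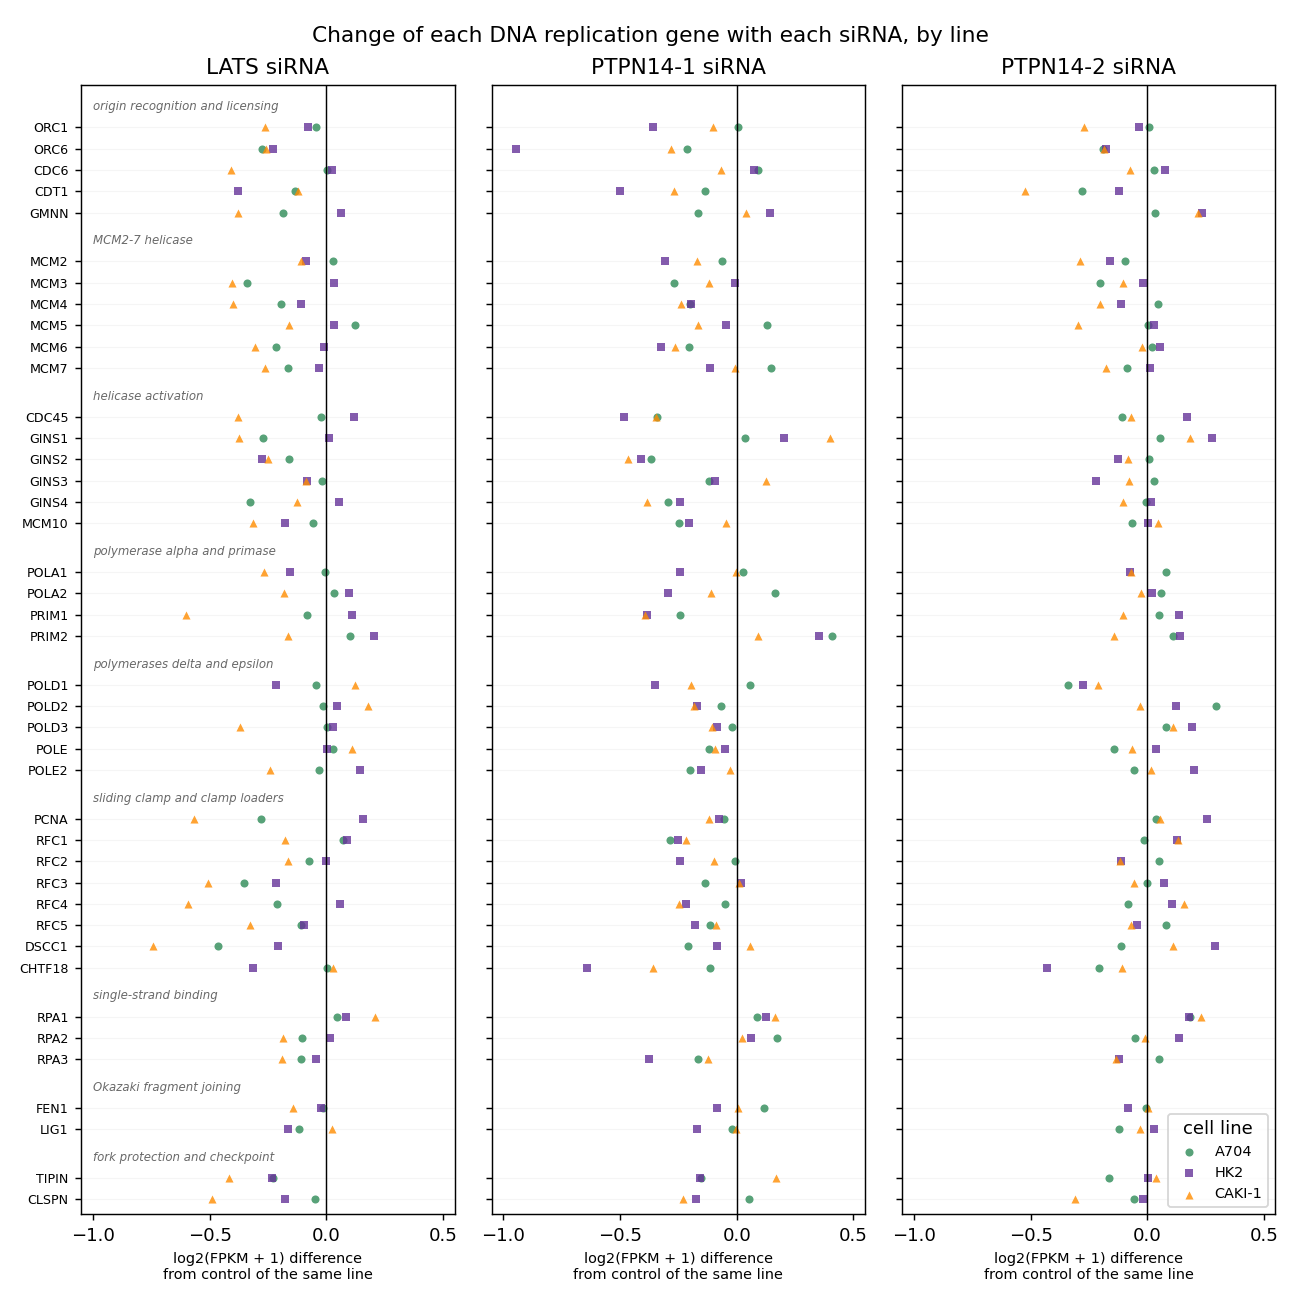
Difference of log2(FPKM + 1) between each siRNA library and the control library of the same line, for each gene (rows, grouped by role) and siRNA (panels), with 1 symbol per line. In the PTPN14-1 panel 23 genes, among them GINS2, CDC45 and GINS4, have all 3 lines left of 0, and 4, among them GINS1, right of it. In the LATS panel the CAKI-1 triangles lie farthest left for most genes, and the PTPN14-2 panel is centred near 0.

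The 2 PTPN14 siRNAs were compared directly with each other. With PTPN14-1, 4 genes were lower than with PTPN14-2 (6.18% of all genes) and 0 were higher (5.52% of all genes, and 1 gene, PRIM2, at an unadjusted p under 0.05, against 13.8% of all genes). GINS2 was lower in all 3 lines (log2 difference -0.35, SE 0.069, adjusted p = 0.0072), as were RFC1 (log2 difference -0.33, SE 0.083, adjusted p = 0.021), CDC45 (log2 difference -0.39, SE 0.11, adjusted p = 0.037) and MCM6 (log2 difference -0.28, SE 0.08, adjusted p = 0.037). For RFC1 the PTPN14-2 libraries stood at 99.0, 109.4 and 110.0% of control and the PTPN14-1 libraries at 81.2, 83.7 and 85.4%. The MCM6 values with PTPN14-2 stayed within 2 FPKM of control in each line, while those with PTPN14-1 lay below it in all 3. At an unadjusted p under 0.05 there were 9 lower genes (13.9% of all genes), among them PRIM1, GINS4 and POLD2. In all, 30 of 41 estimates were lower with PTPN14-1, with a median of -0.074, and 17 genes were lower in all 3 lines (23.2% of all genes) and 1 higher, PRIM2 (24.9% of all genes). PRIM2 missed the threshold (log2 difference 0.25, SE 0.084, adjusted p = 0.075). Both comparisons use the same PTPN14-1 libraries, so their counts are not independent.
Of these calls only that of GINS2 held without each library in turn (adjusted p at most 0.039). The 4 calls became 2 without the A704 PTPN14-1 or the CAKI-1 PTPN14-2 library, and 1 without the HK2 PTPN14-1 or the HK2 PTPN14-2 library. The calls of CDC45 and RFC1 were each lost without any of these 4 libraries, and that of MCM6 without any control, any PTPN14-2 or the HK2 or CAKI-1 PTPN14-1 library. Without the HK2 PTPN14-1 library the adjusted p was 0.16 for CDC45, 0.16 for MCM6 and 0.084 for RFC1.

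**Figure D3:**
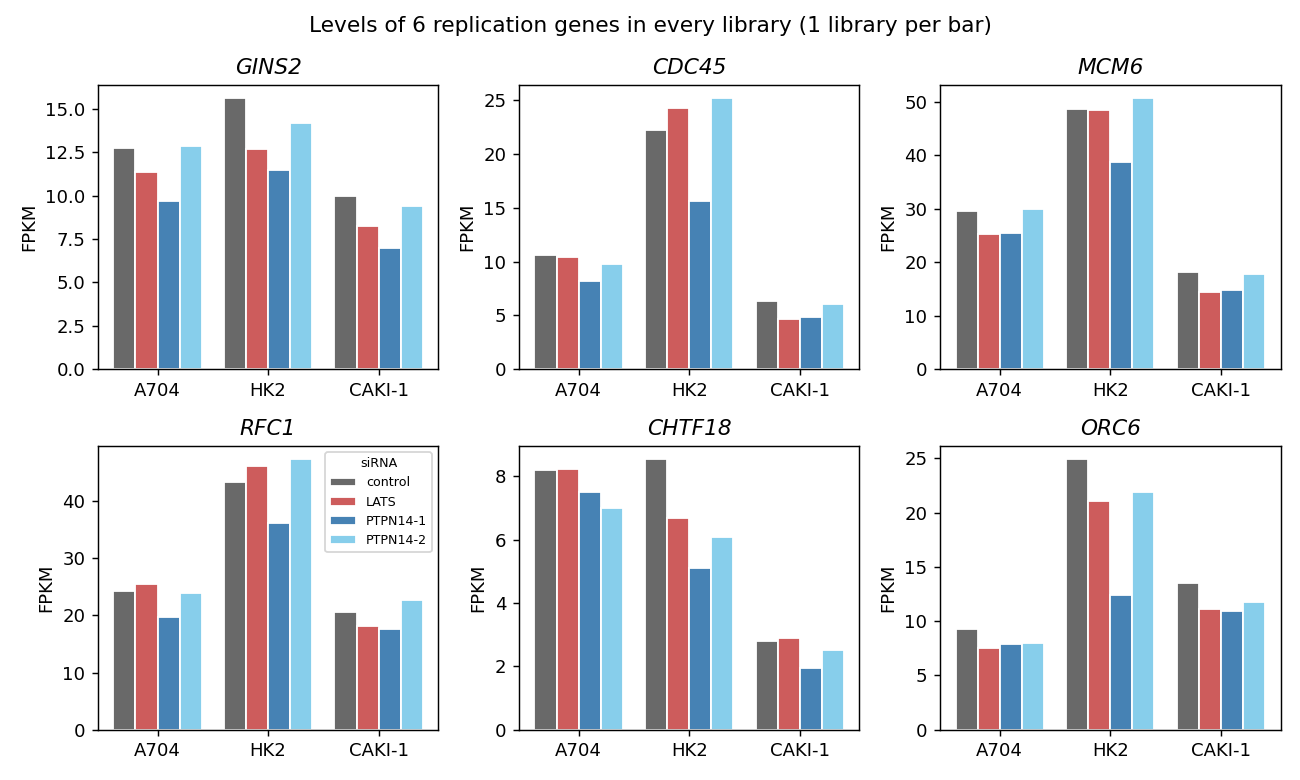
FPKM of GINS2, CDC45, MCM6, RFC1, CHTF18 and ORC6 in each library, with 1 bar per library, grouped by line and coloured by siRNA, and with axes from 0. The PTPN14-1 bar is the lowest of its line in all 3 lines for GINS2 and RFC1, and in HK2 for all 6 genes.

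With PTPN14-2, 0 of the 41 genes passed the limma test against control (1.35% of all genes passed in either direction). At an unadjusted p under 0.05 there were 4 genes with a lower estimate (7.87% of all genes), POLD1, CDT1, CHTF18 and MCM2, and 1 with a higher one (7.10% of all genes), RPA1. POLD1 stood at 76.9, 81.5 and 82.6% of control, and CDT1 at 79.5, 91.2 and 60.9%. RPA1 stood at 114.1, 113.6 and 118.5% of control (log2 difference 0.20, SE 0.067, adjusted p = 0.18). Of the 41 estimates 24 lay below control, with a median of -0.021. In all 3 lines 7 genes lay below control (21.6% of all genes) and 5 above, GMNN, POLD3, RPA1, GINS1 and PCNA (20.9% of all genes). The LATS and PTPN14 comparisons share 1 control library per line.

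With the LATS siRNA, 0 of the 41 genes passed the test (0.122% of all genes passed), and 9 had a lower estimate at an unadjusted p under 0.05 (5.54% of all genes), with 0 higher (5.71% of all genes). The smallest p belonged to RFC3, at 76.9, 85.5 and 68.4% of control (log2 difference -0.36, SE 0.079, adjusted p = 0.15). DSCC1 followed, at 68.4, 86.0 and 54.0% (log2 difference -0.47, SE 0.12, adjusted p = 0.2), and then GINS2, at 88.8, 81.4 and 82.5% (log2 difference -0.23, SE 0.069, adjusted p = 0.28). The others were MCM3, MCM4, MCM6, RFC5, TIPIN and CLSPN. TIPIN stood at 83.1, 83.9 and 72.8% of control and CLSPN at 95.8, 87.9 and 65.2%. Of the 41 estimates 37 lay below control, with a median of -0.13 on the log2 scale against -0.0030 over all genes. In all 3 lines 18 genes lay below control (19.0% of all genes), and 2, POLE and RPA1, lay above it (18.2% of all genes).

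The estimates with the LATS siRNA differed in size between lines. In CAKI-1 35 of 41 genes lay below control, with a median of -0.26, in A704 31 with a median of -0.074, and in HK2 22 with a median of -0.0076. Of all genes 49.8% (CAKI-1), 49.2% (A704) and 49.7% (HK2) lay below control. In CAKI-1 the LATS library was the lowest of the 4 for 27 of the 41 genes, against 30.7% of all genes. There the clamp and loader genes had a median of -0.42, with DSCC1 at 54.0%, RFC4 at 64.7% and PCNA at 67.0% of control. TIPIN and CLSPN had a median of -0.45 and the MCM2-7 genes one of -0.29. The polymerase delta and epsilon genes did not share that direction, with 3 of 5 above control, among them POLD2 at 113.4%. In HK2 PCNA stood at 111.7% and PRIM2 at 116.2% of control. Mitosis genes lay below control for 14 of 14 in CAKI-1 (median -0.28), for 13 of 14 in A704 and for 5 of 14 in HK2, and their part in these values was not tested. With 1 library per line and siRNA, the difference between lines has no test. Without the CAKI-1 LATS library the median over lines was -0.076, with 32 of 41 estimates below control, and 0 genes were called at any setting tried.

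**Figure D4:**
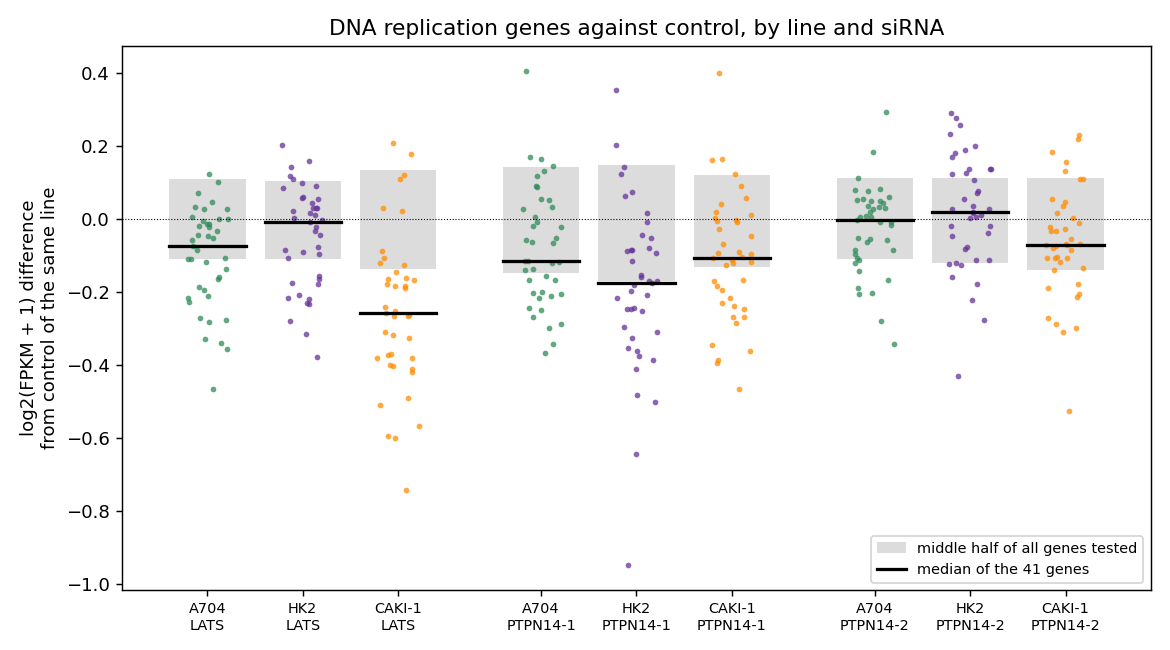
Difference of log2(FPKM + 1) from the control of the same line, for the 41 genes (points) in each line and siRNA, with the median of the 41 as a black bar and the interquartile range of all 12276 genes as a grey box. The CAKI-1 LATS median, -0.26, lies below the grey box, that of HK2 with PTPN14-1 lies just below its box, and the PTPN14-2 medians lie between -0.069 and 0.021.

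Replication genes outside the 41, and genes of neighbouring programmes, were counted from lists drawn up with earlier results of these data known. With PTPN14-1, 3 of 29 other replication genes fell (3.47% of all genes) and 0 rose (2.39% of all genes). The 3 were POLE4 (log2 difference -0.75, SE 0.14, adjusted p = 0.0089), ORC4 (log2 difference -0.46, SE 0.086, adjusted p = 0.0097) and RECQL4 (log2 difference -0.28, SE 0.074, adjusted p = 0.045). ORC4, a subunit of the origin recognition complex, stood at 78.8, 61.0 and 69.9% of control with PTPN14-1 and at 101.9, 99.0 and 95.1% with PTPN14-2. POLE4, a histone-fold subunit of polymerase epsilon, stood at 67.7, 42.7 and 64.0% with PTPN14-1, and its PTPN14-2 values were 99.6, 66.8 and 59.6%. Of 17 G1/S and nucleotide supply genes 3 fell with PTPN14-1, among them DUT and E2F8, and 0 rose, against the same shares of all genes. DUT, the enzyme that removes dUTP, had a larger estimate than any of the 41 genes (log2 difference -0.81, SE 0.073, adjusted p = 8.8e-05), at 57.3, 50.8 and 53.9% of control. E2F8, a repressor of the E2F family, stood at 31.9, 38.6 and 60.2% (log2 difference -0.88, SE 0.13, adjusted p = 0.0026). Of 14 mitosis genes 0 passed with limma, and 4 had a lower estimate at an unadjusted p under 0.05 (11.8% of all genes). By direction, 23 of 29 other replication genes lay below control with PTPN14-1 (median -0.12), as did 14 of 17 G1/S genes (median -0.21). For mitosis genes it was 13 of 14 (median -0.14), against 49.5% of all genes. Lower estimates with PTPN14-1 were thus not particular to the 41 genes. With PTPN14-2 and with LATS siRNA 0 genes of the 3 lists passed. At an unadjusted p under 0.05 with PTPN14-2, 3 other replication, 2 G1/S and 1 mitosis genes were lower (7.87% of all genes). Only 3 G1/S genes were higher there (7.10% of all genes). With LATS siRNA 5, 4 and 2 genes were lower in the same order of lists (5.54% of all genes), and 0 were higher (5.71% of all genes). Between the PTPN14 siRNAs, ORC4 and TIMELESS of the other replication genes were lower with PTPN14-1 (6.18% of all genes). So were E2F8, DUT and MYBL2 among the G1/S genes and KIF20A and HMMR of the mitosis genes. In the 3 lists 1 G1/S gene, E2F7, was higher (5.52% of all genes).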

How the data were processed

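PolyA RNA of 12 libraries was analysed. A single table from the authors gives FPKM by gene symbol, and that unit was read from the values. The submitters' processing notes name the aligner STAR 2.4.0g1 and the build GRCh38.p1, and the labels' protocols name a stranded kit. Not given in the sources used here are the counter, annotation, strand setting and scaling. FPKM are not counts, so no count model was used. Depth was estimated from whole-read steps of 28 to 56 low single-exon genes per library, 75.0 to 94.9% of which lay on the best step. It is an estimate, as the authors' gene lengths are unknown.

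Values were fitted as log2(FPKM + 1), with a pseudocount of 1, for 12276 genes with FPKM above 1 in 3 or more libraries, using limma 3.58.1 in R 4.3.3 (trend and robust moderation, statmod 1.5.0). The model held cell line and siRNA over all 12 libraries and left 6 residual degrees of freedom, with Benjamini-Hochberg adjustment over all genes. Libraries of 1 line pair because they are the same cell line (correlation of deviations from the siRNA means 0.958 to 0.983). The script was checked on simulated data. The members and lists were chosen with earlier results of these data known, so they are descriptions. Library values are given for members past the threshold, for the smallest p and the widest line range in each role, and for MCM2 to MCM7, PCNA, CDC6, CDT1 and GMNN. Genes of other lists are named when past the threshold, up to 4 per list, and 1 gene that meets this rule is not reported here. E2F7 and the other genes named outside this rule were chosen after their values were seen. Alternatives were other pseudocounts, filters, scalings, moderation, samples and blocks, and each library left out. Exons of 18 members overlap another gene in GENCODE v29 (on the same strand for 6), and 6 have named pseudogenes (POLD2, PCNA, RFC3, RFC5, RPA2 and FEN1), so their values are less certain. Promoters came from RefSeq (GRCh38.p14).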

Additional observations from a re-analysis of the deposited data

Results flagged for a closer look

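In 7 of 123 sets of a gene's 4 libraries of 1 line, the highest or lowest library stood far from the other 3. Chance flags about 1 in 20 such sets. The CAKI-1 LATS library was the low one for RFC3 (10.4 FPKM), DSCC1 (3.76), RPA2 (23.1) and FEN1 (19.9). In A704 the LATS library was low for ORC1 (8.64), the PTPN14-2 library high for POLD2 (84.1) and the PTPN14-1 library high for FEN1 (38.0).

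For 3 genes all 3 siRNA libraries of 1 line lay above control and all 3 of another line below it. The mean log2 ratio of the 3 siRNAs to control was 0.22 higher in A704 than in CAKI-1 for CDC6 and 0.24 higher in HK2 than in CAKI-1. The difference between A704 and CAKI-1 was 0.30 for MCM5 and 0.19 for POLA2. The 3 ratios of a line share 1 control library, and these differences were not tested.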

How the results depend on the processing

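Counts of called members kept within 1.5 times the reported value at all 19 other settings for the 3 line comparisons (33 to 38), and stayed 0 for PTPN14-2 and LATS siRNA against control. For PTPN14-1 against control the count of 2 became 1 with no filter on low values, 6 with libraries scaled to an equal sum, 0 with only the 6 libraries of the contrast, and 1 to 5 with 1 library left out. For PTPN14-1 against PTPN14-2 the count of 4 became 2 with no filter, 7 with that scaling, and 1 to 6 with 1 library left out. With no replicate block (cell line left out of the model) both counts were 0, and the line comparisons without the siRNA term gave 33 (A704 against CAKI-1), 35 (A704 against HK2) and 37 (HK2 against CAKI-1). GINS2 against control missed the threshold only in the fit of 6 libraries (adjusted p = 0.061) and without the block (adjusted p = 1). No named call changed direction. The cause of these changes was not tested. With 1 library per line and siRNA, a change within 1 line could not be tested.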
